A study of Drosophila melanogaster with 3 samples.

Results

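The 8 genes described here encode the ecdysone receptor and transcription factors of the ecdysone response: EcR, usp, Eip75B, Eip74EF, Eip78C, Eip93F, br and ftz-f1. They were chosen by symbol, and all 8 were found among the 13988 features of the count matrices. Their levels were read in 5 groups of cells, called gates, that are defined by UMI counts of 4 other genes.

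Ecdysone is the steroid hormone of insect moulting and metamorphosis. Its active form, 20-hydroxyecdysone, enters cells through an importer and binds a heterodimer of the nuclear receptors EcR and Ultraspiracle (usp). The bound receptor activates early genes, among them Eip74EF, Eip75B and br (broad), whose products are transcription factors that act on later genes. In the Drosophila brain the receptor is known to act in larval neural stem cells, the neuroblasts, which pass from an early state with the RNA-binding protein Imp to a late state with Syncrip (Syp), Broad and E93 (Eip93F).

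Single-cell transcriptomes were read from the brains of larvae grown at 25 °C and aged between 72 and 96 h after egg laying. Neuroblasts of type 1 with their progeny had been isolated by fluorescence-activated sorting. The mud library carried Sqh::GFP and mud4 on X with worGal4 and UAS-mCherry::Jupiter on 3. The nanobody library carried Sqh::GFP with worGal4 and UAS-mCherry::Jupiter, and likewise on chromosome 3 the transgene UAS-ALDInscuteable RockKinase domain-VhhGFP4-HA. The control library carried Sqh::GFP on X with worGal4 and UAS-mCherry::Jupiter on 3, so the tagged myosin light chain Sqh, the driver worGal4 and the tagged microtubule protein Jupiter were shared by all 3 libraries. worGal4 is expressed in neuroblasts and drives each UAS transgene there. The study asks how sibling cell size bears on the cell cycle and on fate, and the members serve here as a check of larval stage. There was 1 library per genotype, all in batch 1, so differences between genotypes were described and not tested. Genotype, library preparation and the age of the larvae within the window of 72 to 96 h cannot be told apart.

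A barcode was called a cell with at least 1000 UMIs, at least 500 detected genes and at most 20% mitochondrial UMIs. This gave 15194 cells in mud, 14415 in nanobody and 14852 in control, with medians of 6176, 6863 and 6528.5 UMIs per cell in the same order of libraries. Between 59 and 78 cell barcodes were shared by any pair of libraries. The dpn gate held cells with at least 1 UMI of deadpan, a neuroblast transcription factor, and numbered 862 cells in mud, 854 in nanobody and 457 in control. The ase gate held cells with at least 2 UMIs of asense, a gene of neuroblasts and their daughters, and 0 of dpn, with 3748, 3362 and 3938 cells in that order. Cells with 1 to 9 UMIs of nSyb, a synaptic vesicle gene of neurons, formed the low-nSyb gate (4797, 4488 and 4182 cells). Those with 10 or more formed the high-nSyb gate (927, 730 and 822 cells). The repo gate needed at least 2 UMIs of the glial gene repo and was small, with 107, 59 and 89 cells. Levels are given as CPM, the UMIs of a gene scaled to a common total of UMIs over the cells summed, with exact 95% Poisson intervals that cover counting error only.

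The gates were set against marker lists. Summed neuroblast markers (mira, wor, klu, insc and ase, which set the ase gate) reached 1869 CPM in mud, 1857 in nanobody and 1962 in control in the dpn gate. They stood at 1014, 953 and 1018 CPM in the ase gate, and at 48.4 to 199 CPM over both nSyb gates. Of these markers insc was higher in ase than in dpn in nanobody (106 against 89.4 CPM) and control (74.1 against 63.3 CPM), and lower in mud (57.6 against 63.8 CPM). Summed neuron markers (elav, brp, Syt1, Rdl and nSyb) were 5474 to 6740 CPM in the high-nSyb gate and 2531 to 2862 CPM in the low-nSyb gate. nSyb itself set both gates, so its 1349 to 1781 CPM in the high sum and 440 to 477 CPM in the low sum are fixed by the rule. In the ase gate the sum was 1948 CPM in mud, 2613 in nanobody and 2740 in control, and elav, a neuronal RNA-binding protein gene, made up most of it. elav stood at 1244 to 1651 CPM in the low-nSyb gate and 1781 to 2649 CPM in the ase gate. The synaptic genes ran the other way, with brp at 299 to 409 CPM in low nSyb and 20.2 to 38.3 CPM in ase, and Syt1 at 271 to 306 CPM and 17.3 to 32.1 CPM. Summed glial markers (nrv2, Gs2, Eaat1, alrm and repo) reached 3786 CPM in mud, 3131 in nanobody and 2735 in control in the repo gate, against at most 568 CPM elsewhere. repo set that gate and gave 231 to 304 CPM of the sum. Gs2, which was not used to set it, stood at 1310 CPM in mud, 890 in nanobody and 765 in control there, against at most 16.7 CPM elsewhere. alrm stood at 712 to 942 CPM there, against at most 15.6 CPM elsewhere. The other list members separated the repo gate less. nrv2 was at 706 to 1044 CPM there and 301 to 370 CPM in the dpn and ase gates. Eaat1 was at 249 to 282 CPM there and 128 to 204 CPM in the dpn and ase gates. The list for ganglion mother cells, the small daughters of neuroblasts, was highest in the low-nSyb gate because of 1 member, pros, at 9691 to 15304 CPM, so that gate is called here only by its rule. In the dpn gate this list summed to 1424 CPM in mud, 2025 in nanobody and 1440 in control. Hemocyte markers stayed at or below 1.56 CPM in every gate and library. Gates could share cells: between 4.5% and 20.2% of a gate's cells also fell in another gate. Cells in no gate made up 34.6% of called cells in mud, 36.5% in nanobody and 38.2% in control.

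In the annotation of assembly BDGP6.54, EcR (FBgn0000546) spans 2R 6087873 to 6169087 and usp (FBgn0003964) spans X 2038798 to 2042311. Eip75B (FBgn0000568) lies at 3L 17950953 to 18064696 and Eip74EF (FBgn0000567) at 3L 17558672 to 17619325. Eip78C (FBgn0004865) lies at 3L 21226609 to 21266503, and ftz-f1 (FBgn0001078) at 3L 18750607 to 18801309. Eip93F (FBgn0264490) lies at 3R 21949114 to 22014539 and br (FBgn0283451) at X 1575132 to 1664869. Apart from usp, of which 86.5% is exonic, these are long genes with 11.8% to 22.5% of their span in exons, and the sources used here do not say whether intronic reads were counted. The whole usp span lies inside Actn on the same strand, and all of br overlaps Mur2B on the opposite strand, so how the authors' counting assigned reads there is uncertain. The transcript variants of EcR, Eip75B and br cannot be told apart in these counts.

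EcR, the hormone-binding partner of the receptor, was higher in cells with nSyb than in cells with ase. It stood at 386 CPM in mud, 315 in nanobody and 335 in control in the low-nSyb gate, against 180 CPM in mud, 89.5 in nanobody and 105 in control in the ase gate. The values of these gates did not overlap. On the fitted scale the difference was 1.42 ± 0.20 (log2 fold change ± SE, 3 libraries per gate; edgeR adjusted p = 4.21e-05). The dpn gate held 200 CPM in mud, 103 in nanobody and 98.0 in control. Its values overlapped those of the ase gate, with a log2 fold change for ase over dpn of 0.10 ± 0.20 (edgeR adjusted p = 0.705). In the high-nSyb gate EcR was at 322 CPM in mud, 358 in nanobody and 263 in control, and in the repo gate at 292, 316 and 240 CPM. Neither step passed the test, with edgeR adjusted p-values of 0.954 for high over low nSyb and 0.129 for repo over high nSyb. In each library the dpn and ase gates held the lowest levels of receptor transcript.

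The partner receptor usp varied little. Its level was 42.7 CPM in mud, 39.9 in nanobody and 43.0 in control in the dpn gate, and 45.6 to 50.5 CPM over the ase and both nSyb gates. It was lower in the repo gate, at 25.0 CPM in mud (17.1 to 35.3), 29.6 in nanobody (18.8 to 44.4) and 40.8 in control (29.7 to 54.8), than in the high-nSyb gate. That difference had a log2 fold change of -0.82 ± 0.11 (edgeR adjusted p = 2.23e-05). The ase gate was above the dpn gate by 0.38 ± 0.07 (edgeR adjusted p = 0.00117). This call ended in 3 of 15 alternatives, among them no TMM scaling, where the difference was 0.19 and the adjusted p 0.0854 in edgeR. With cells thinned to 1000 UMIs it was 0.16.

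Eip75B, which encodes heme-binding nuclear receptors related to the vertebrate REV-ERBs, was highest in the low-nSyb gate of each library. It reached 2358 CPM in mud, 2858 in nanobody and 2990 in control in the low-nSyb gate. The ase gate held 445 CPM in mud, 439 in nanobody and 381 in control. Each library's low-nSyb level was thus far outside the ase values, with a log2 fold change of 2.60 ± 0.15 (edgeR adjusted p = 2.05e-08). The dpn gate held 415 CPM in mud, 392 in nanobody and 287 in control, and ase over dpn passed at 0.40 ± 0.14 (edgeR adjusted p = 0.0338). That call ended in 7 of 15 alternatives, among them no TMM scaling, at 0.21, and thinned cells, at -0.11. The high-nSyb gate stood at 1714 CPM in mud, 2310 in nanobody and 1975 in control, below the low-nSyb gate of the same library in all 3. The fitted difference of -0.31 ± 0.14 missed the threshold (edgeR adjusted p = 0.0903). It passed in 8 of 15 alternatives, with -0.49 in thinned cells and -1.08 with stricter gates (edgeR adjusted p = 1.32e-04). In the repo gate Eip75B was at 609 CPM in mud, 570 in nanobody and 504 in control. It was lower there than in the high-nSyb gate by a log2 fold change of -2.04 ± 0.15 (edgeR adjusted p = 1.57e-07).

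The zinc-finger gene br, whose products accompany the start of metamorphosis, was also highest in the low-nSyb gate of each library. Its level in the low-nSyb gate was 1696 CPM in mud, 2305 in nanobody and 2322 in control. That compared with 496 CPM in mud, 617 in nanobody and 438 in control in the ase gate, a log2 fold change of 1.93 ± 0.11 (edgeR adjusted p = 1.72e-08). br was lower in the ase gate than in the dpn gate, where it stood at 660 CPM in mud, 828 in nanobody and 681 in control (log2 fold change -0.30 ± 0.10, edgeR adjusted p = 0.0329). That call ended in 4 of 15 alternatives, among them leaving out the nanobody library, at -0.38 (edgeR adjusted p = 0.112). The high-nSyb gate was lower than the low-nSyb gate, at 1081 CPM in mud, 1540 in nanobody and 1502 in control. This step had a log2 fold change of -0.47 ± 0.10 (edgeR adjusted p = 0.00305). The repo gate held 1054 CPM in mud, 1378 in nanobody and 1156 in control and was below the high-nSyb gate by a fitted -0.41 ± 0.11 (edgeR adjusted p = 0.00415). This repo call ended in 4 of 15 alternatives, among them stricter gates, at 0.10.

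Eip74EF, an early gene encoding ETS-domain factors, was low in the dpn, ase and low-nSyb gates. It stood at 8.16 CPM in mud, 3.27 in nanobody and 3.5 in control in the dpn gate, and at 0.827 to 3.52 CPM in the ase gate. The low-nSyb gate held 11.6 CPM in mud, 15.4 in nanobody and 8.45 in control, above the ase gate by a log2 fold change of 2.34 ± 0.29 (edgeR adjusted p = 1.17e-05). In the high-nSyb gate the level was 123 CPM in mud, 177 in nanobody and 79.7 in control, with no overlap between these gates. The step from low to high nSyb had a log2 fold change of 3.54 ± 0.25 (edgeR adjusted p = 5.57e-07). The repo gate held similar levels, 177 CPM in mud, 234 in nanobody and 99.3 in control, and its difference from the high-nSyb gate did not pass (0.20 ± 0.25, edgeR adjusted p = 0.519). With a minimum of 12% ribosomal-protein UMIs per cell it was 0.64 and passed (edgeR adjusted p = 0.0376), as in no other of 15 alternatives.

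Eip78C, a nuclear receptor gene that also responds to ecdysone, was likewise low in the dpn and ase gates. Its level was 1.55 CPM in mud, 1.83 in nanobody and 1.31 in control in the dpn gate, from 9 to 19 UMIs. It was 25.9 CPM in mud, 22.5 in nanobody and 21.8 in control in the high-nSyb gate, against 4.18, 5.50 and 3.27 CPM in those libraries in the low-nSyb gate. This difference had a log2 fold change of 2.65 ± 0.38 (edgeR adjusted p = 1.48e-04), and low nSyb was above ase by 2.09 ± 0.45 (edgeR adjusted p = 0.00111). The repo gate split by library: nanobody stood at 83.6 CPM (64.5 to 107, 65 UMIs), mud at 14.1 CPM (8.34 to 22.2, 18 UMIs) and control at 7.43 CPM (3.21 to 14.6, 8 UMIs). Over the 3 libraries the difference between repo and high nSyb did not pass for Eip78C (0.07 ± 0.46, edgeR adjusted p = 0.912). Without the nanobody library the difference was -1.28 (edgeR adjusted p = 0.0061).

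ftz-f1, which encodes a nuclear receptor known as a competence factor between hormone pulses, moved opposite to Eip75B and br between the ase and low-nSyb gates. It was lowest in the low-nSyb gate, at 79.2 CPM in mud, 45.0 in nanobody and 66.5 in control. The ase gate held 193 CPM in mud, 147 in nanobody and 188 in control, and the fitted difference between these gates was -1.59 ± 0.12 (edgeR adjusted p = 2.11e-07). In the high-nSyb gate the level was higher than in the low-nSyb gate, at 142 CPM in mud, 116 in nanobody and 190 in control (log2 fold change 1.39 ± 0.12, edgeR adjusted p = 3.09e-06). That step was 0.37 with a minimum of 12% ribosomal-protein UMIs and 2.89 with stricter gates. The dpn gate held 248 CPM in mud, 210 in nanobody and 235 in control, and the repo gate 258, 224 and 274 CPM. Repo was above high nSyb by 0.55 ± 0.13 (edgeR adjusted p = 0.00255). That call ended in 2 of 15 alternatives, at -0.49 with stricter gates and 0.33 with thinned cells.

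Eip93F, which encodes the late metamorphic factor E93, was found at the highest level in the low-nSyb gate. It stood there at 107 CPM in mud, 236 in nanobody and 166 in control, against 32.5 CPM in mud, 44.3 in nanobody and 48.0 in control in the ase gate. The log2 fold change was 1.86 ± 0.21 (edgeR adjusted p = 4.97e-06). The dpn gate held 56.1 CPM in mud, 77.2 in nanobody and 76.5 in control, and ase was lower than dpn by a fitted -0.56 ± 0.21 (edgeR adjusted p = 0.041). This call ended in 6 of 15 alternatives, among them leaving out nanobody or control, and the difference was -0.16 with stricter gates (edgeR adjusted p = 0.744). The high-nSyb gate was lower, at 38.6 CPM in mud, 121 in nanobody and 84.8 in control (-0.96 ± 0.20, edgeR adjusted p = 0.00237). That difference was -0.56 with a minimum of 12% ribosomal-protein UMIs and -3.45 with stricter gates, and without the library block its edgeR adjusted p was 0.0925. The repo gate held 1 UMI in mud, 5 in nanobody and 11 in control, which gives 0.782, 6.43 and 10.2 CPM. It was lower there than in the high-nSyb gate by a log2 fold change of -4.01 ± 0.41 (edgeR adjusted p = 2.53e-06). With stricter gates, where high nSyb began at 20 UMIs, this call ended, at -0.86 (edgeR adjusted p = 0.436), and it stood in the other 14 of 15 alternatives.

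**Figure D1:**
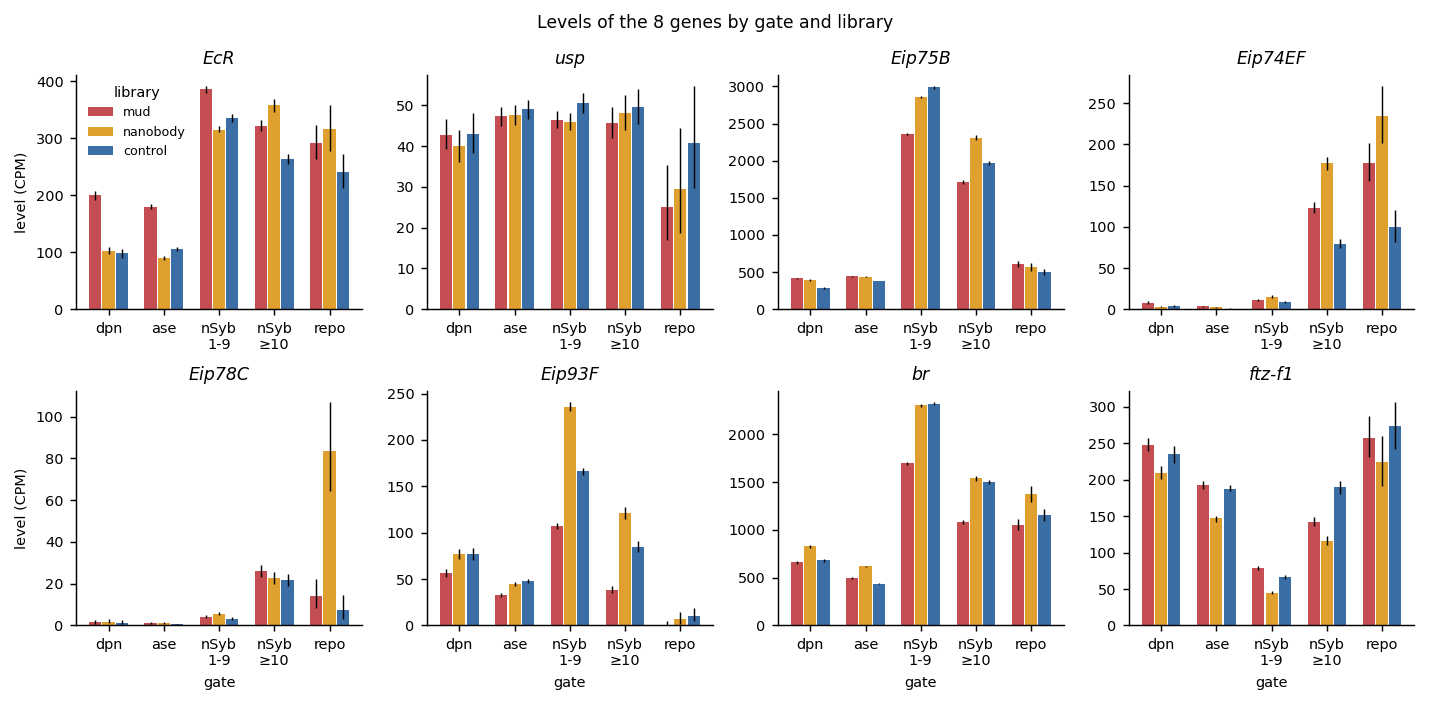
Level in CPM (linear axis from 0) of each of the 8 genes in the 5 gates, with 1 bar for each of the mud, nanobody and control libraries and error bars for the exact 95% Poisson interval. Eip75B, br and Eip93F are highest in the low-nSyb gate of each library, ftz-f1 is lowest there, and Eip74EF and Eip78C are near the axis until the high-nSyb gate.

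Counted over the members, 7 of 8 passed the test between the low-nSyb and ase gates, 6 higher and 1 (ftz-f1) lower. Of the 8179 genes tested, 73.0% were called in that contrast, so the share of members is near the background and is not read as particular to them. Their median log2 fold change was 1.90, beside -0.02 over all genes tested. Between high and low nSyb 5 of 8 were called, 3 higher and 2 lower, where 46.1% of all genes were called. For repo over high nSyb 5 of 8 were called, 1 higher and 4 lower, against 66.2% of all genes. For ase over dpn 5 of 8 were called, 2 higher and 3 lower, and 48.1% of all genes were called. Each of these last 5 calls ended under at least 3 of 15 alternatives. The count was 1 without the nanobody library, 2 without control and 1 without the library block, and the share of all genes called is given for the main fit only. In the main fit no member differed between ase and dpn by more than the -1.0 ± 0.35 of Eip74EF. Fold changes are relative to TMM scaling. Without it the median over all genes moved to -0.14 for ase over dpn and to 0.08 for low nSyb over ase. It moved to -0.19 for high over low nSyb and to 0.12 for repo over high nSyb. With TMM scaling these medians were 0.05, -0.02, -0.04 and -0.09 in the same order.

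**Figure D2:**
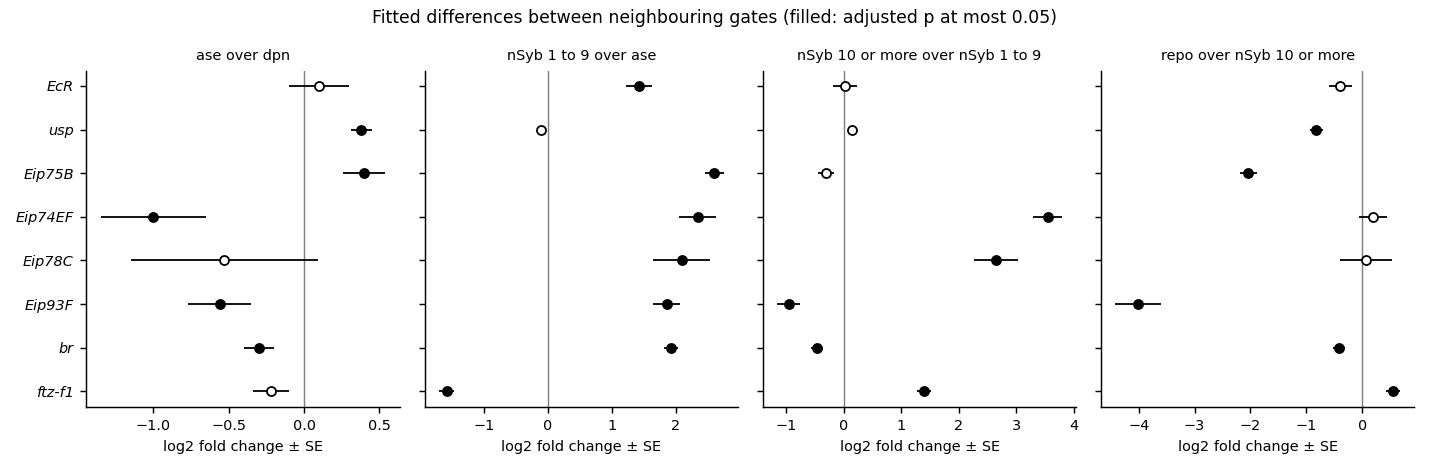
Fitted log2 fold change (x axis, bars show the SE from the fit of all 15 sums) of each gene between neighbouring gates, with filled points for an edgeR adjusted p of at most 0.05. Between the low-nSyb and ase gates 6 points lie to the right of 0 and ftz-f1 lies at -1.59, while Eip74EF lies at 3.54 between high and low nSyb.

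Called cells were also grouped more finely by their nSyb UMIs, which separates the members within the high-nSyb gate. Eip74EF stood at 40.1 CPM in mud, 68.6 in nanobody and 25.1 in control in cells with 10 to 19 nSyb UMIs. In cells with 50 or more it stood at 305 CPM in mud, 446 in nanobody and 167 in control. From 1 to 2 UMIs upwards each next group of cells stood higher in all 3 libraries. Eip78C was at 8.90 CPM in mud, 7.53 in nanobody and 7.03 in control at 10 to 19 UMIs, and at 50.9, 58.6 and 39.9 CPM at 20 to 49. Eip75B did the reverse, with 2226 CPM in mud, 2796 in nanobody and 2634 in control at 10 to 19 UMIs, and 852, 860 and 898 CPM at 50 or more. For br the corresponding levels were 1409 CPM in mud, 1790 in nanobody and 1908 in control, then 485, 592 and 681 CPM. Eip93F was at 115 CPM in mud, 273 in nanobody and 176 in control at 3 to 9 UMIs, and at 3.5, 1.60 and 0.903 CPM at 50 or more. ftz-f1 had its minimum at 3 to 9 UMIs, with 57.2 CPM in mud, 28.6 in nanobody and 47.4 in control. It then stood at 231 CPM in mud, 282 in nanobody and 342 in control at 20 to 49.

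**Figure D3:**
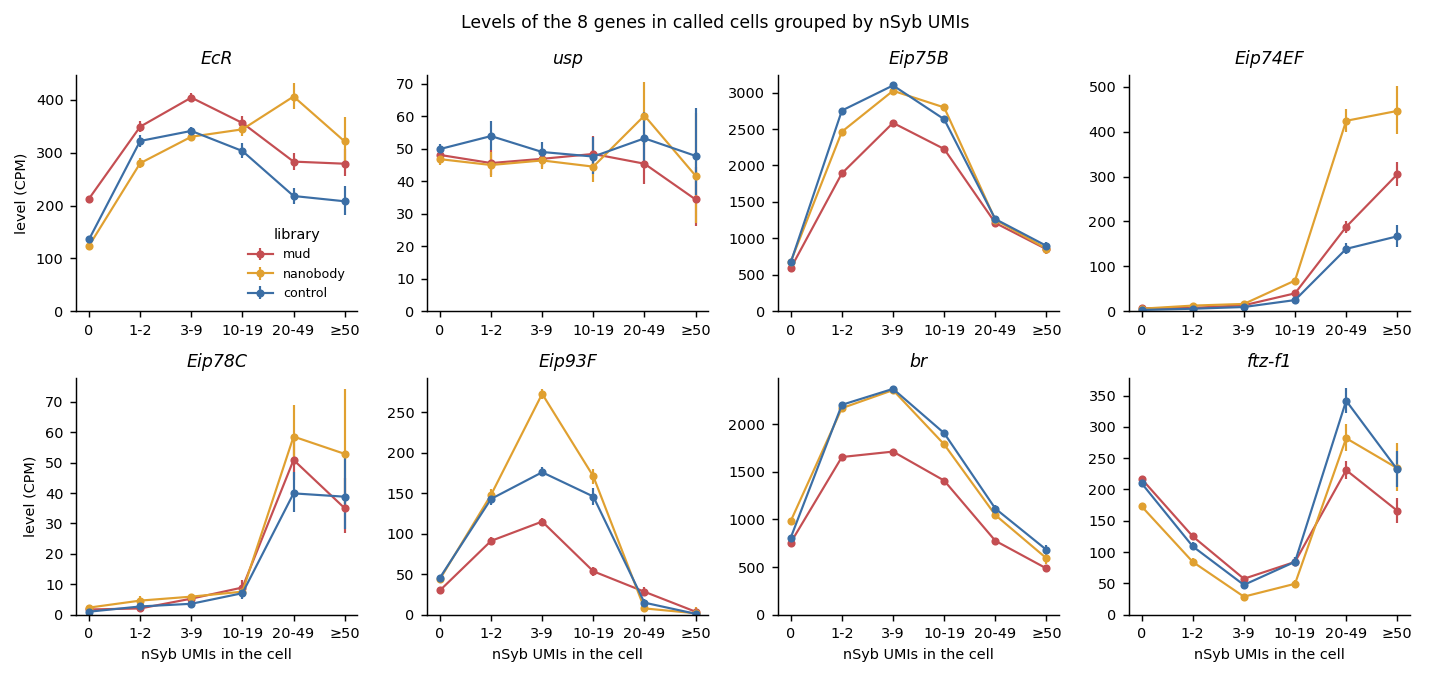
Level in CPM (linear axis from 0) of each gene in called cells grouped by nSyb UMIs, from 0 to 50 or more, with a line per library and 95% Poisson intervals. Eip75B, br and Eip93F peak at 3 to 9 UMIs and ftz-f1 has its minimum there, while Eip74EF and Eip78C are highest in cells with at least 20 UMIs.

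Depth and ribosomal-protein share moved with this grouping. The median cell with 50 or more nSyb UMIs had 21273.5 UMIs in mud, 20224 in nanobody and 19545 in control, and the median cell with 3 to 9 had 8085, 9182 and 8469. The groups with 50 or more held 72, 30 and 50 cells. In the high-nSyb gate 37.2% of cells in mud, 26.3% in nanobody and 42.1% in control had under 12% of their UMIs on ribosomal-protein genes, and the members differed by this share. In those cells ftz-f1 stood at 294 CPM in mud, 359 in nanobody and 398 in control, against 86.1, 59.1 and 81.0 CPM in the other cells of the gate. Eip93F stood at 16.1 CPM in mud, 19.6 in nanobody and 8.70 in control, against 46.9, 145 and 124 CPM in the other cells. With cells under 12% left out, the log2 fold change of high over low nSyb was 0.37 for ftz-f1 and -0.56 for Eip93F. In the main fit these were 1.39 and -0.96.

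Cells of the high-nSyb gate were also divided by transmitter, and ftz-f1 and Eip93F are given here. A cell was assigned to a transmitter when VAChT (acetylcholine), VGlut (glutamate) or Gad1 (GABA) held at least 75% of at least 2 UMIs of these genes. VAChT cells numbered 488 in mud, 405 in nanobody and 497 in control, VGlut cells 179, 140 and 147, and Gad1 cells 130, 102 and 96. ftz-f1 stood at 179 CPM in mud, 171 in nanobody and 266 in control in VAChT cells, at 114, 53.6 and 72.8 CPM in VGlut cells and at 126, 74.9 and 128 CPM in Gad1 cells. Eip93F stood at 21.3 CPM in mud, 66.8 in nanobody and 41.3 in control in VAChT cells, at 32.6, 115 and 146 CPM in VGlut cells and at 50.8, 267 and 103 CPM in Gad1 cells. In each of the 3 libraries ftz-f1 stood above its VGlut level in VAChT cells and Eip93F below it. The median VAChT cell had 11620 UMIs in mud, 12577 in nanobody and 10419 in control, and the median VGlut cell 12223, 13107.5 and 11971. No test was made of either difference, nor of the part of depth or ribosomal-protein share in them. Levels of the other members are not given for this split, and no rule set which members to give.

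Eip93F was held by few cells. At least 1 UMI was seen in 14.0% of low-nSyb cells in mud, 22.1% in nanobody and 16% in control. After thinning each cell to 1000 UMIs these shares were 5.73% (5.09 to 6.43, Clopper-Pearson), 11.2% (10.3 to 12.1) and 7.60% (6.82 to 8.45). In repo cells, which served as the background, the unthinned share was 0.935% in mud, 6.78% in nanobody and 4.49% in control. The 1% of low-nSyb cells richest in Eip93F held 30% of its UMIs in mud, 18.6% in nanobody and 25.9% in control. For Eip75B in the same gate that figure was 3.29%, 3.03% and 2.85%, with a UMI in 97.5%, 98.4% and 98.3% of cells.

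Cells with at least 5 Eip93F UMIs were set against cells with none, a split chosen after the levels had been seen and given without a test. In the dpn gate the Eip93F cells numbered 30 in mud, 52 in nanobody and 38 in control. Syp, the RNA-binding protein of the late neuroblast state, stood in them at 9512 CPM in mud, 7121 in nanobody and 7263 in control. In dpn cells without Eip93F it stood at 2580 CPM in mud, 2229 in nanobody and 2226 in control. Imp, of the early state, stood at 1726 CPM in mud, 186 in nanobody and 317 in control in the Eip93F cells, against 1888, 973 and 1003 CPM in cells without. The mean level of br was 514 CPM in mud, 876 in nanobody and 745 in control, against 683, 818 and 714 CPM, so it did not move one way. These Eip93F cells were deeper, with medians of 17303 UMIs in mud, 19784 in nanobody and 13742 in control against 9507, 8488 and 11197.5, and the part of depth was not tested.

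In the low-nSyb gate the same split gave 269 Eip93F cells in mud, 532 in nanobody and 328 in control. Syp was at 2651 CPM in mud, 2150 in nanobody and 2105 in control in them, against 986, 1136 and 1017 CPM in cells without. Imp was at 1154 CPM in mud, 304 in nanobody and 392 in control, against 1752, 819 and 1228 CPM. Here br was higher, at 2903 CPM in mud, 4042 in nanobody and 3971 in control, against 1584, 1998 and 2153 CPM. ftz-f1 was lower, at 55.1 CPM in mud, 19.9 in nanobody and 34.4 in control, against 81.4, 50.3 and 70.5 CPM. EcR was nearly level, at 393 CPM in mud, 320 in nanobody and 346 in control, against 386, 314 and 336 CPM. The Eip93F cells were deeper, with medians of 8441 UMIs in mud, 9672 in nanobody and 9382 in control against 6957, 7905 and 7195, and the part of depth in this was not tested.

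**Figure D4:**
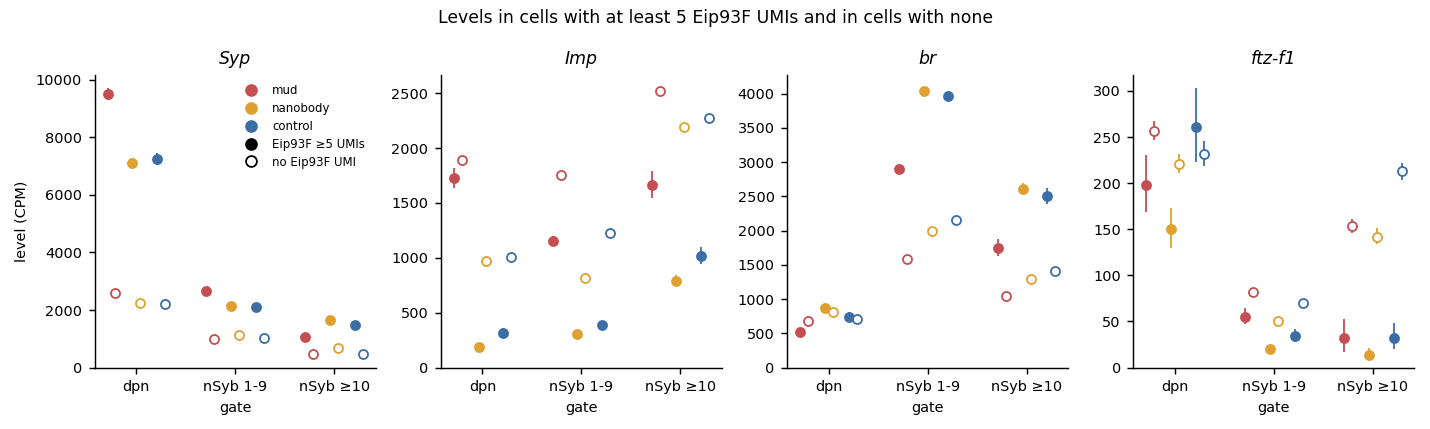
Level in CPM (linear axis from 0) of Syp, Imp, br and ftz-f1 in cells with at least 5 Eip93F UMIs (filled) and with none (open), in 3 gates and for the mud, nanobody and control libraries, with 95% Poisson intervals. Syp is higher in the Eip93F cells in all 9 pairs, and br is higher in both nSyb gates but not in every library of the dpn gate.

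The dpn cells were also split by Imp and Syp. This uses the same cells and counts as the split by Eip93F, so it is not a second observation of the pairing of Eip93F with Syp. Cells with more Syp than Imp UMIs numbered 526 in mud, 589 in nanobody and 339 in control, and cells with more Imp numbered 285, 225 and 96. Eip93F stood at 82.8 CPM in mud, 92.3 in nanobody and 94.7 in control in the Syp cells, and at 10.9, 26.0 and 15.2 CPM in the Imp cells, with no overlap. Eip74EF stood at 4.41 CPM in mud, 2.54 in nanobody and 1.5 in control in the Syp cells, against 14.7, 6.27 and 11.6 CPM. Few cells carried it: the dpn gate held 100 Eip74EF UMIs in 26 cells of mud, 34 in 19 of nanobody and 24 in 8 of control, and up to 21 came from 1 cell. EcR did not divide this way, with 208 CPM in mud, 95.7 in nanobody and 97.7 in control in the Syp cells against 186, 126 and 104 CPM. The level of br was also alike, at 645, 831 and 673 CPM against 659, 823 and 724 CPM. Both kinds of dpn cell held br and EcR transcript in each library. Barcodes of 20 to 200 UMIs, which carry mostly free RNA, held 2402 CPM of br in mud, 1674 in nanobody and 1258 in control. EcR stood in them at 752 CPM in mud, 250 in nanobody and 240 in control. The part of free RNA in the br and EcR levels of dpn cells was not tested.

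Further genes of the pathway were taken from lists, and counted by the same fit. Of 10 genes of hormone production and inactivation, 4 passed the filter on low counts. phm, an enzyme gene of ecdysone synthesis, had 1 UMI over all gates and libraries. The activating enzyme gene shd stood at 14.1 CPM in mud, 21.9 in nanobody and 12.1 in control in the repo gate, and at most 0.481 CPM elsewhere. The importer gene Oatp74D (EcI) was highest in the repo gate, at 1013 CPM in mud, 614 in nanobody and 579 in control, against 122, 98.6 and 71.5 CPM in the high-nSyb gate (2.68 ± 0.17, edgeR adjusted p = 4.56e-08). It was lower in the ase gate than in the dpn gate by a log2 fold change of -1.59 ± 0.17 (edgeR adjusted p = 2.01e-05).

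Of 8 coregulators, all 8 were called between the low-nSyb and ase gates, 4 higher and 4 lower, where 73.0% of all genes were called. The coactivator taiman (tai) was higher there by 1.47 ± 0.10 (edgeR adjusted p = 1.02e-07), with 415 CPM in mud, 354 in nanobody and 373 in control against 164, 117 and 110 CPM. The nuclear receptor gene Hr38, a partner of usp, was at 187 CPM in mud, 105 in nanobody and 150 in control in the high-nSyb gate. It was at 5.93, 1.87 and 2.87 CPM in the low-nSyb gate (5.67 ± 0.33, edgeR adjusted p = 1.23e-07). Of 18 other response genes found by symbol, 11 were tested, and 7 of them were called between high and low nSyb, 5 higher and 2 lower, against 46.1% of all genes. Ldh (ImpL3) reached 1078 CPM in mud, 818 in nanobody and 1602 in control in the high-nSyb gate against 18.6, 11.6 and 18.3 CPM (6.34 ± 0.42, edgeR adjusted p = 2.79e-07). ImpL2, which encodes a secreted insulin-binding protein, was higher by 5.16 ± 0.88 (edgeR adjusted p = 5.21e-04), although its level was 63.5 CPM in mud, 0.959 in nanobody and 37.2 in control. ImpE1 was lower in the high-nSyb gate (edgeR adjusted p = 8.20e-06), with 1 UMI in mud, 0 in nanobody and 1 in control there against 2.72, 2.51 and 2.04 CPM in the low-nSyb gate. It stood at 439 CPM in mud, 437 in nanobody and 205 in control in the repo gate. E23, an ABC transporter gene, was at 58.6 CPM in mud, 127 in nanobody and 13.0 in control in the repo gate and at most 6.20 CPM elsewhere.

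Of the 3 juvenile hormone genes, the receptor gene gce was higher in the low-nSyb than in the ase gate by 3.55 ± 0.18 (edgeR adjusted p = 1.02e-08). Its levels there were 56.3 CPM in mud, 62.4 in nanobody and 57.6 in control, against 5.95, 4.37 and 3.88 CPM. Of 7 temporal genes, 5 were called between the low-nSyb and ase gates, with Imp higher by 2.25 ± 0.22 (edgeR adjusted p = 1.53e-06) and cas lower by a log2 fold change of -3.42 ± 0.21 (edgeR adjusted p = 3.18e-08). lin-28 was lower there too (-2.29 ± 0.58, edgeR adjusted p = 0.00338), at 1.72 CPM in mud, 0.102 in nanobody and 0.214 in control in the low-nSyb gate against 3.24, 3.04 and 0.912 CPM in the ase gate. Over the 4 contrasts the 7 temporal genes gave 5, 5, 4 and 5 calls, where 48.1%, 73.0%, 46.1% and 66.2% of all genes were called.

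Between genotypes, a value was measured where either library reached 20 CPM. Of such pairs of member and gate, 7 of 32 were past 1.5-fold for mud over control, 4 above and 3 below it, and 4 of 33 for nanobody over control, 3 above and 1 below. These are ratios of single libraries with exact 95% counting intervals. For mud over control the members past 1.5-fold were 1 of 6 in the dpn gate, 1 of 6 in ase, 1 of 6 in low nSyb, 2 of 8 in high nSyb and 2 of 6 in repo. Over all genes measured in the same gates 7.68%, 7.42%, 4.75%, 6.2% and 22.3% were past 1.5-fold. For nanobody over control the members gave 0 of 6, 0 of 6, 0 of 6, 2 of 8 and 2 of 7, against 1.46%, 1.76%, 0.642%, 2.92% and 24.3% of all genes.

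EcR stood above control in mud in the 2 gates with the least EcR. In the dpn gate it was at 200 CPM in mud and 98.0 CPM in control, a ratio of 2.04 (1.87 to 2.22), while nanobody stood at 1.05 (0.951 to 1.16) times control. In the ase gate it was at 180 CPM in mud and 105 CPM in control, a ratio of 1.71 (1.64 to 1.78). Over the other 3 gates the mud ratio was 1.15 to 1.22. With cells thinned to 1000 UMIs, 22.2% of dpn cells held an EcR UMI in mud (19.4 to 25.1), 11.4% in nanobody (9.31 to 13.7) and 9.85% in control (7.27 to 13.0). Barcodes of 20 to 200 UMIs, which carry mostly free RNA, held 752 CPM of EcR in mud, 250 in nanobody and 240 in control, and the part of free RNA in the difference was not tested. Cells with under 12% ribosomal-protein UMIs made up 24.2% of the dpn gate in mud, 21.3% in nanobody and 18.4% in control, and held 608 CPM of EcR in mud, 181 in nanobody and 234 in control. In the other dpn cells EcR was at 168 CPM in mud, 96.2 in nanobody and 89.7 in control. Neuron markers other than elav also stood above control in mud in both gates. In the dpn gate nSyb was at 81.6 CPM in mud, 39.6 in nanobody and 33.8 in control, brp at 52.1, 36.6 and 21.8 CPM, Syt1 at 44.3, 28.8 and 20.5 CPM, and Rdl at 61.2, 33.4 and 19.5 CPM. In the ase gate nSyb was at 53.4 CPM in mud, 30 in nanobody and 32.1 in control, and brp at 38.3, 28.3 and 20.2 CPM. elav ran the other way, at 609 CPM in mud, 898 in nanobody and 820 in control in the dpn gate and 1781, 2514 and 2649 CPM in the ase gate. Of dpn cells, 17.1% in mud, 10.3% in nanobody and 11.8% in control also fell in another gate. With only cells in 1 gate kept, the log2 ratio of EcR in mud was 1.13 in the dpn gate and 0.75 in the ase gate, and the part of neuronal RNA in what remained was not tested.

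Eip93F stood below control in mud. In the low-nSyb gate its ratio to control was 0.646 (0.620 to 0.673) in mud and 1.42 (1.37 to 1.47) in nanobody. In the high-nSyb gate it was 0.455 (0.407 to 0.509) in mud and 1.43 (1.31 to 1.56) in nanobody. This difference lay in cells with up to 19 nSyb UMIs: at 10 to 19 UMIs Eip93F was at 53.5 CPM in mud and 146 in control, and at 20 to 49 UMIs at 28.2 CPM in mud and 14.7 in control. With the high-nSyb gate set at 20 UMIs, mud stood above control, with a log2 ratio of 0.65. Barcodes of 20 to 200 UMIs held 117 CPM of Eip93F in mud, 118 in nanobody and 94.5 in control. The early gene Imp stood at 1655 CPM in mud, 720 in nanobody and 1095 in control in the low-nSyb gate.

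Eip74EF stood above control in both other libraries in the 2 gates where it was measured. In the high-nSyb gate the ratio was 1.55 (1.42 to 1.69) in mud and 2.22 (2.04 to 2.41) in nanobody, and in the repo gate 1.79 (1.41 to 2.27) and 2.36 (1.85 to 3.02). The 1% of high-nSyb cells with most Eip74EF held 21.3% of its UMIs in mud, 15.9% in nanobody and 15.4% in control. Over 11 alternative settings the log2 ratio in the high-nSyb gate ranged from 0.31 to 0.82 in mud and from 0.87 to 1.53 in nanobody. Barcodes of 20 to 200 UMIs held 21.3 CPM of Eip74EF in mud, 23.4 in nanobody and 8.97 in control, and the part of free RNA was not tested. ftz-f1 stood below control in nanobody in all 5 gates, with ratios from 0.613 (0.570 to 0.659) in high nSyb to 0.895 (0.839 to 0.956) in dpn. The high-nSyb value was the one past 1.5-fold, and it was no longer past it in 3 alternatives: its log2 ratio was -0.42 with a minimum of 12% ribosomal-protein UMIs, -0.21 with stricter gates and -0.56 with cells thinned to 1000 UMIs. Cells under that minimum, where ftz-f1 stood highest, made up 26.3% of the gate in nanobody and 42.1% in control, and without them ftz-f1 stood at 59.1 CPM in nanobody and 81.0 CPM in control. In mud it had ratios of 0.751 to 1.19.

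In the repo gate Eip78C had a ratio of nanobody to control of 11.3 (5.39 to 27.2), from 65 and 8 UMIs. At least 1 UMI was in 45.8% of the 59 repo cells in nanobody (32.7 to 59.2), 9.35% of 107 in mud (4.57 to 16.5) and 6.74% of 89 in control (2.51 to 14.1). After thinning to 1000 UMIs these shares rested on 5, 2 and 0 cells, at 8.47% (2.81 to 18.7), 1.87% (0.227 to 6.59) and 0% (0 to 4.06), and their intervals overlapped. The fat body list moved with genotype in this gate: apolpp stood at 471 CPM in mud, 656 in nanobody and 15.8 in control, while Lsp1beta, Lsp2 and Fbp1 were at 0 in all 3. The list's summed level was thus that of apolpp, and its part in the Eip78C and Eip74EF values of this gate was not tested. usp in the repo gate of mud had a ratio of 0.613 (0.376 to 0.988) from 32 UMIs, against 44 in control. The remaining values differed by less: Eip75B ratios were 0.789 to 1.44 in mud and 0.956 to 1.36 in nanobody, and br ratios 0.719 to 1.13 and 0.993 to 1.41.

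**Figure D5:**
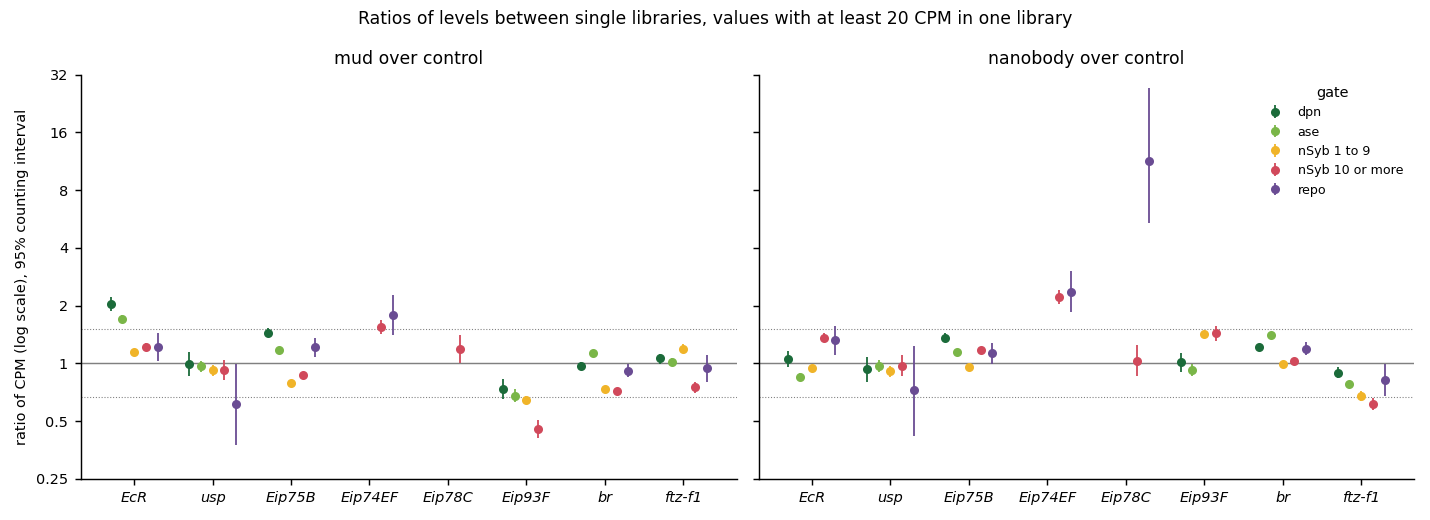
Ratio of CPM (log axis) of mud over control and nanobody over control for each gene and gate that reached 20 CPM in either library, with exact 95% counting intervals. Dotted lines mark 1.5-fold, EcR of the dpn gate lies at 2.04 and Eip93F of the high-nSyb gate at 0.455 for mud, and Eip78C of the repo gate lies at 11.3 for nanobody.

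The genes whose levels were most alike were found by Pearson's r of log2(CPM + 5) over the 15 sums of gate and library, which share libraries and depth, so r is a description only. Eip75B was closest to PCNA2 (r = 0.994), EcR to puc (0.96) and br to Sdhaf3 (0.956). Eip74EF was closest to CG4297 (0.974), Eip78C to Inos (0.983) and ftz-f1 to NP15.6 (0.923). Eip93F was closest to not (0.962), and usp to vib (0.95) over a range of 0.89 on that scale. Among the members the highest r was 0.91, for Eip74EF with Eip78C, and the lowest was -0.81, for Eip75B with ftz-f1. Eip75B and br gave 0.86, and the receptor pair EcR and usp gave -0.14.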

How the data were processed

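The deposited files hold raw UMI counts per gene and barcode, made by the authors with Cell Ranger 9.0.1 per the file headers, from a 3′ gene expression kit (GEM-X v4) per the labels' protocols. Cell Ranger and Seurat are named in the submitters' processing notes. The genome build, the annotation and the counting of intronic reads are not given in the sources used here. The matrices hold all barcodes, so cells were called as stated above, and doublets were kept in the main values (an alternative removed 831 to 923 per library). Called cells held 108519041 to 113544220 UMIs per library. No per-sample column was left unused (0).

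UMIs were summed per library and gate into 15 sums. Gates were compared with edgeR 4.0.16 in R 4.3.3 (quasi-likelihood test, TMM scaling, filterByExpr, library as a block, all 5 gates in 1 fit), with Benjamini-Hochberg adjustment over the 8179 genes tested and calls at an adjusted p of at most 0.05. The 3 libraries are the replicates of a gate and differ in genotype, so the p-values do not reach beyond these libraries. The p-values and SE rest on the spread estimated in the fit of all 5 gates, not on the 2 compared gates alone. The SE is the absolute log2 fold change divided by the square root of the F statistic. The fit was also run on simulated counts with changes in the high-nSyb gate only and no effect of library. These settings differ from the data, and the outcome is not used here. Genotypes were compared by ratios of CPM with exact conditional intervals, with log2 ratios taken after adding 5 CPM, and without a test. Shares of cells were computed after thinning to 1000 UMIs and without thinning, with Clopper-Pearson intervals. Intervals cover counting error only. Other computations used Python 3.11.15 with numpy 2.4.6, scipy 1.17.1 and pandas 2.3.3, and doublet scores used scikit-learn 1.9.0.

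The members and gene lists were chosen with earlier results of these data known. The text names the members everywhere, up to 3 genes of a pathway list per contrast among those with the largest absolute fold change, and the genes most alike to a member. The levels of phm and of E23 in the repo gate are given although no rule names them, and were chosen after their values were seen. Of 21 listed other response genes 18 were found by symbol. Alternatives were DESeq2 1.42.0, library totals, no filter on low counts, no library block, only the compared gates, each library left out, stricter gates and cell filters, thinning and other pseudocounts. A minimum of 12% ribosomal-protein UMIs and the splits by nSyb UMIs, ribosomal-protein share and Eip93F were added after seeing the data.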

Additional observations from a re-analysis of the deposited data

Results flagged for a closer look

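EcR between the high-nSyb and low-nSyb gates moved in opposite directions in single libraries. Its log2 ratio of CPM was 0.18 in nanobody and -0.34 in control, a difference of 0.52, and mud at -0.26 stood -0.44 from nanobody. Eip78C between the repo and high-nSyb gates had a log2 ratio of 1.69 in nanobody and -1.11 in control, a difference of 2.80, and mud at -0.70 stood -2.38 from nanobody. With 1 library per genotype neither difference was tested.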

How the results depend on the processing

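Between the low-nSyb and ase gates 7 members were called under all 15 alternatives, and between high and low nSyb 4 to 7. For ase over dpn, with 5 in the main fit, 3 were called with a minimum of 12% ribosomal-protein UMIs, with stricter gates and with no filter on low counts, 1 without the library block, and 1 to 4 with a library left out. For repo over high nSyb, also with 5, 3 were called with thinned cells and 2 with stricter gates. The share of all genes called is given here for the main fit only. These counts therefore do not tell a change in the members from a change in the whole test. Values past 1.5-fold for mud numbered 11 with stricter gates and 4 with 20 CPM added, against 7, and for nanobody 8 with thinned cells and 8 with stricter gates, against 4. The cause was not tested.

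The sign turned in a few cases. Thinning gave -0.11 for Eip75B and -0.29 for trr (ase over dpn). Ldh (low nSyb over ase), at -0.32 in the main fit without a call, was 2.36 with cells in 1 gate only, 1.56 thinned and 1.01 without doublets, and Hr38 was -0.41 with the 12% minimum. Stricter gates gave br 0.10, ftz-f1 -0.49 and Alh 0.05 (repo over high nSyb) and 0.65 for Eip93F of mud (high nSyb). Eip78C (repo over high nSyb) was -1.28 without the nanobody library and 0.65 without mud. The fits between gates pair the sums by library, through the block, and between genotypes no paired analysis was possible because each genotype has 1 library. Limits are the 59 to 107 repo cells, the low counts of Eip78C and Eip74EF in the dpn and ase gates, and gates that share cells.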
